A study of Mus musculus with 2 samples.

Results

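Scar-associated macrophages are macrophages derived from blood monocytes that gather in fibrotic lung and carry a shared set of transcripts, led by the secreted proteins osteopontin (Spp1) and fibronectin (Fn1). The 10 genes described here are Spp1, Fn1, Gpnmb, Trem2, Cd9, Cd63, Lgals3, Itgax, Adgre1 and Csf1r, out of 38972 gene rows in the deposited table. Of these, 9 were found by gene symbol. Adgre1, listed there under its older symbol Emr1, was found by gene ID. The genes were chosen with their ratios in these libraries known, so their values are a description and are not tested.

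The sequenced RNA came from mouse lung cells that the labels call fibroblasts, with 1 library per genotype and 2 libraries in all. The myoFoxf1 KO library came from αSMA-Cre-ERT2/ Foxf1fl/fl mice of the C57Bl/6 strain, in which a tamoxifen-activated Cre under the smooth muscle actin promoter deletes the forkhead factor gene Foxf1. The Foxf1fl/fl control library came from littermates that carried the floxed alleles without the Cre. The treatment protocol gives weekly intratracheal bleomycin, a drug that scars the lung, at 1 or 2 U/kg over 2 to 4 weeks, and tamoxifen at 40 mg/kg on days 2 to 4. The labels name bleomycin for the control sample and, in the design text, for the series, but not in the title of the knockout sample. The dose and duration used for these cells, the age and number of the animals and the way cells were isolated are not given in the sources used here. With 1 library per group there is no spread between animals, overlap of the groups cannot be assessed, and no p-value is given.

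In lung injury, monocytes recruited from blood mature into macrophages under the growth factor receptor encoded by Csf1r. In fibrotic tissue of mice and humans a fraction of them takes on a lipid-handling, matrix-remodelling state marked by Trem2, Gpnmb, Cd9, Cd63, Lgals3 and Spp1. Osteopontin and fibronectin are secreted ligands that bind integrins through an RGD motif, and fibronectin is made by fibroblasts as well as macrophages. Cd9, Cd63, Lgals3 and Spp1 are also expressed by epithelial cells.

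Promoter sequences are shown for 4 of the genes: Spp1, Gpnmb and Itgax, which were called higher in the knockout library, and Trem2, which holds matches of 2 of the motifs. The sequences are those of RefSeq for GRCm38.p6, from 250 bases before to 50 bases after the start of transcription, and 7 of the 10 genes were searched there; Fn1 and Adgre1 had no entry, and the sequence of Csf1r was not used here. Capitals mark GAGGAA, the core of sites of the myeloid factor PU.1, and TGANTCA, the site of AP-1 factors, on either strand (TTCCTC is GAGGAA read on the other strand). Matches of the 2 motifs did not overlap in these sequences. The order is Spp1 (chr5:104434861-104435160, plus strand), Gpnmb (chr6:49036268-49036567, plus strand), Itgax (chr7:128129300-128129599, plus strand) and Trem2 (chr17:48346151-48346450, plus strand).
Spp1: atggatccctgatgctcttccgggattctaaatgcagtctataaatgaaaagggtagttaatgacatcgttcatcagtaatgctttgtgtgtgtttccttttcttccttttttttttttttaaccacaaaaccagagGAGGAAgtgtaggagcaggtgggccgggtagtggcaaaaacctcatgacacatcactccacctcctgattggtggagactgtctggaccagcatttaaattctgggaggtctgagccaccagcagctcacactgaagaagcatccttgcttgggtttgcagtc
Gpnmb: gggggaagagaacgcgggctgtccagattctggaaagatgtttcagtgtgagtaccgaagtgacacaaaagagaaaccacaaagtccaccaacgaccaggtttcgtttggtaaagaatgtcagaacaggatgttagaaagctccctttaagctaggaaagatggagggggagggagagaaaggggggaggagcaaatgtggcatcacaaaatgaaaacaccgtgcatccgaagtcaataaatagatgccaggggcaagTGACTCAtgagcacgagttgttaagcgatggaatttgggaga
Itgax: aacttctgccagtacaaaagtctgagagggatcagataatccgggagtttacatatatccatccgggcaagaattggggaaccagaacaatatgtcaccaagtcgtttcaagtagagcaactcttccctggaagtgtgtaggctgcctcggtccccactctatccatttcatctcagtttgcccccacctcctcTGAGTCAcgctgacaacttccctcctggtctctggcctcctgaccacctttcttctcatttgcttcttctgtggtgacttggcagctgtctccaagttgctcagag
Trem2: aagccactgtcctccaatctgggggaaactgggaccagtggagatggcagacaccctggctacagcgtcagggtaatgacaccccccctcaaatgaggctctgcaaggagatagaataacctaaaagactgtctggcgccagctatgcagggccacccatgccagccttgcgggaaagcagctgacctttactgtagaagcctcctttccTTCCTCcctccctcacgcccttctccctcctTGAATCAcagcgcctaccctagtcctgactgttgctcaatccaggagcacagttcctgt

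With the start of transcription at 0, the PU.1 core began at -113 in the Spp1 promoter shown and at -40 in Trem2. The AP-1 motif began at 8 in Gpnmb, at -56 in Itgax and at -9 in Trem2. Of the 7 genes searched, 3 held the PU.1 core (Spp1, Trem2 and Cd63) and 3 the AP-1 motif, each in 3 of their 8 promoters. Among all 32851 promoters of the same length, 28.3% held GAGGAA and 7.81% held TGANTCA. The E-box TCACGTG, a motif bound by the MiT factors that control lysosomal genes, was in none of these 7 genes' promoters and in 3.77% of all promoters. RefSeq also lists a second Spp1 promoter, whose start lies 1074 bases downstream of the deposited gene start and which held none of the 3 motifs. The start used for Cd63 lies 426 bases, and that for Lgals3 6109 bases, downstream of the deposited gene start. A match describes the letters of these windows only.

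The library labels were checked on Foxf1, which had 49 reads in the knockout library and 158 reads in the control, a log2 ratio of -1.27 (95% interval -1.77 to -0.81). It was at -0.82, less than 2-fold lower, after the correction for GC content and transcript length described below. The labelled cell type was checked on 15 fibroblast markers and 20 pan-macrophage markers. Fibroblast markers summed to 188 FPKM in the knockout and 589 FPKM in the control, against 26276 FPKM and 15821 FPKM for pan-macrophage markers. No marker of either list was at 0 reads. Each isolate thus held far more transcript of macrophage than of fibroblast markers. The pan-macrophage marker Lyz2 alone gave 17157 FPKM in the knockout and 9887 FPKM in the control. The 13 epithelial markers described below summed to 6345 FPKM in the knockout and 26155 FPKM in the control. The fibroblast markers had a median log2 ratio of -1.04, and their part in the ratio of Foxf1 was not tested. In such bulk samples, a different number of cells of a type and a different amount of RNA per cell cannot be told apart.

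Levels are given as reads and as the deposited FPKM (reads scaled to gene length and library total), and ratios as log2 of knockout over control CPM (reads scaled to the library size after TMM, which centres the bulk of genes between libraries). A call required a CPM difference of 2-fold or more with a 95% exact counting interval that did not hold a ratio of 1. This interval covers counting error only. All 10 genes passed the filter of 1 CPM or more in either library and 20 or more reads summed over both. Of them, 5 were called higher in the knockout and none lower. Among the 14455 measured genes 9.37% were called higher and 14.2% lower, and among the 2576 genes of at least 100 CPM in either library, a class that holds all of the 10 but Trem2, 17.8% were called higher and 3.88% lower. With total reads alone 3 of the 10 genes were called higher (Spp1, Fn1 and Gpnmb) and none lower, beside 4.05% higher and 22.1% lower among the 14502 genes measured under that scaling. As the genes were chosen on this contrast, nothing is read from their count.

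Spp1 encodes osteopontin, a secreted phosphoprotein that binds integrins and CD44. It lies on chromosome 5 from 104435118 to 104441050 (GRCm38, plus strand) and had 69647 reads in the knockout library against 18118 reads in the control. Its level was 2795 FPKM in the knockout, rank 11 of all gene rows, and 681 FPKM in the control, rank 78. The log2 ratio was 2.35 (2.33 to 2.38), the highest of the 10 genes, and Spp1 was also called with a 4-fold threshold and under each scaling tried. Spp1 alone took 0.461% of all reads of the knockout library (exact 95% interval 0.457% to 0.464%) and 0.112% of the control (0.111% to 0.114%). Of the summed FPKM of the 10 genes it made up 45.4% in the knockout and 21.0% in the control.

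Fn1 encodes fibronectin, a large glycoprotein that is assembled into the provisional matrix of wounds. It lies on chromosome 1 from 71585523 to 71653171 on the minus strand. The knockout library held 24524 reads and 195 FPKM, and the control 9775 reads and 72.8 FPKM, for ranks of 276 and 830. The log2 ratio was 1.74 (1.70 to 1.77). The table gives 1 value per gene, so the spliced forms of fibronectin, which differ between plasma and tissue, were not separated.

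Lgals3 encodes galectin-3, a carbohydrate-binding lectin secreted by macrophages and epithelium. It lies on chromosome 14 from 47367751 to 47386160. Its reads were nearly equal, 30491 in the knockout and 30490 in the control, for 1085 FPKM and 1016 FPKM. By FPKM it was the most abundant of the 10 genes in the control, and in the knockout it followed Spp1 and Cd9. Its log2 ratio of 0.41 (0.39 to 0.43) was the lowest of the 10, and it was not called.

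**Figure D1:**
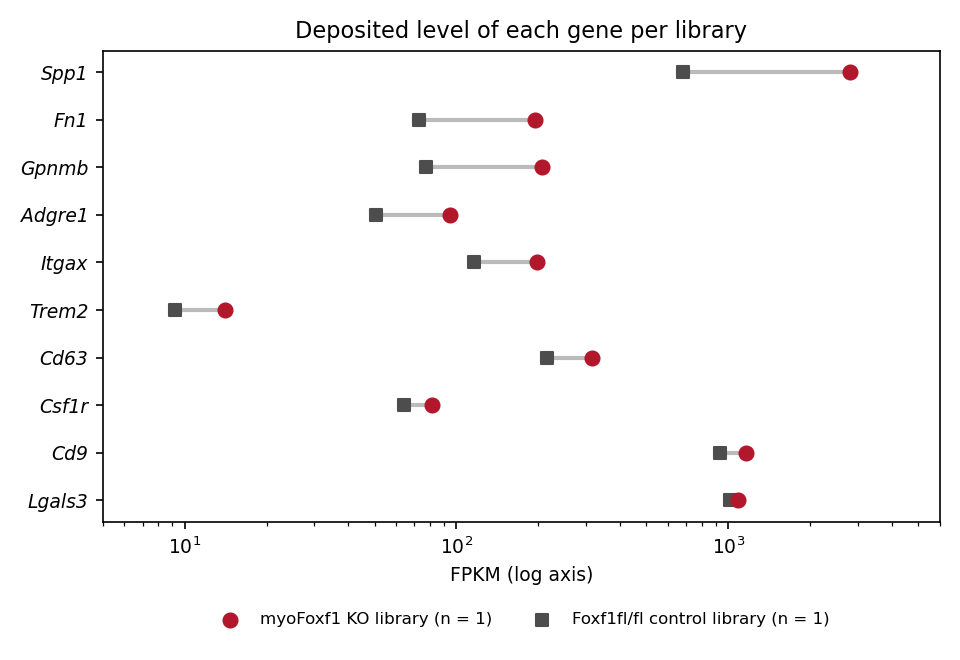
Deposited FPKM (log axis) of the 10 genes in the myoFoxf1 KO library (circles) and the Foxf1fl/fl control library (squares), 1 library each, ordered by ratio. Spp1 stands at 2795 FPKM in the knockout and 681 FPKM in the control, while Lgals3 stands at 1085 FPKM and 1016 FPKM.

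Among the surface receptors, Gpnmb, a transmembrane glycoprotein of lysosomes and the plasma membrane, had the highest ratio. Gpnmb lies on chromosome 6 from 49036518 to 49058182 and had 11843 reads in the knockout and 4744 in the control, or 206 FPKM and 77.4 FPKM. Its log2 ratio of 1.73 (1.68 to 1.78) did not differ from that of Fn1 beyond counting error, with Gpnmb minus Fn1 at -0.01 (-0.07 to 0.05).

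Adgre1 encodes F4/80, the adhesion receptor by which mouse macrophages are commonly stained. It lies on chromosome 17 from 57358686 to 57483529 and had 4651 reads in the knockout and 2642 in the control, or 94.8 FPKM and 50.4 FPKM. The log2 ratio was 1.23 (1.16 to 1.30). Itgax, the gene of the integrin alpha chain CD11c of alveolar macrophages and dendritic cells, lies on chromosome 7 from 128129547 to 128150656. It had 12135 reads in the knockout and 7591 in the control, or 198 FPKM and 116 FPKM, a log2 ratio of 1.09 (1.05 to 1.13). Both genes were called higher with TMM scaling but not with total reads alone, where Adgre1 was at 0.91 and Itgax at 0.77.

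Trem2 encodes a lipid-sensing receptor that signals through the adaptor TYROBP. It lies on chromosome 17 from 48346401 to 48354147 and was the least abundant of the 10, with 1056 reads in the knockout and 734 in the control, or 14.1 FPKM and 9.19 FPKM. The log2 ratio of 0.93 (0.80 to 1.07) lay just below the 2-fold threshold, as that of Itgax lay just above it. The FPKM of Trem2 rests on a gene length of 4946 bases in the deposited table, against 1031 bases for Cd63 and 1648 bases for Spp1. Csf1r, the receptor of the growth factor CSF1, lies on chromosome 18 from 61105572 to 61132149. It had 6011 reads in the knockout and 5070 in the control, or 81.4 FPKM and 64.3 FPKM, a log2 ratio of 0.66 (0.60 to 0.71) without a call.

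The tetraspanins Cd9 and Cd63 organise membrane microdomains, CD9 at the cell surface and CD63 in late endosomes and exosomes. Cd9, on chromosome 6 from 125460266 to 125494791 (minus strand), had 36011 reads in the knockout and 30863 in the control, or 1165 FPKM and 935 FPKM. Its log2 ratio was 0.63 (0.61 to 0.65). Cd63, on chromosome 10 from 128908919 to 128912816, had 4925 reads in the knockout and 3591 in the control, or 316 FPKM and 216 FPKM. Its log2 ratio was 0.87 (0.80 to 0.93), and neither tetraspanin was called.

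**Figure D2:**
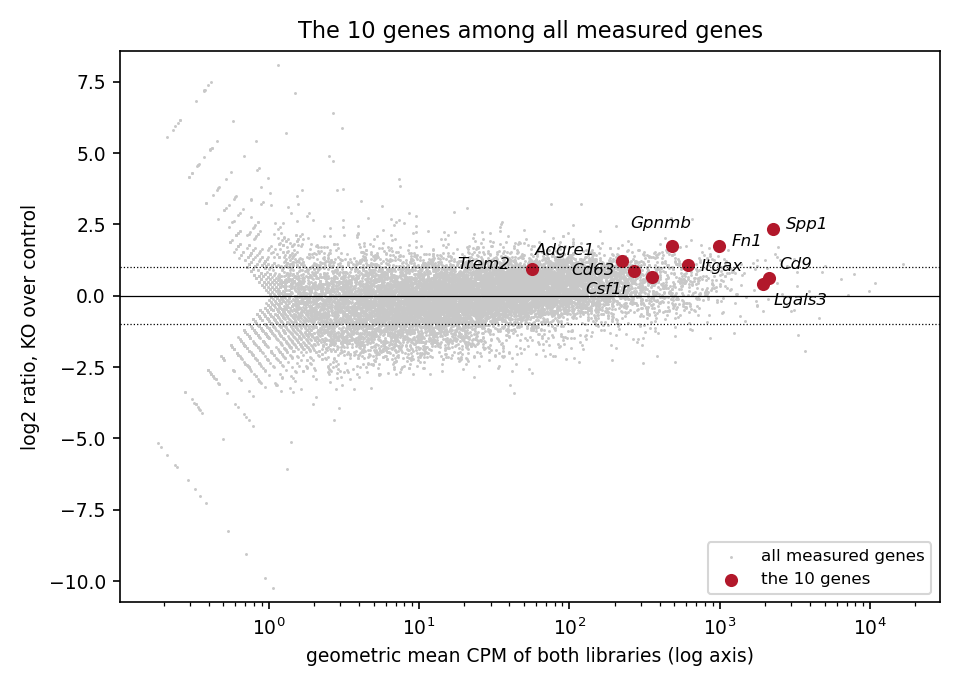
Log2 ratio of knockout over control against the geometric mean CPM of both libraries (log axis, with a small floor for libraries at 0 reads) for the 14455 measured genes (grey) and the 10 genes (red); solid line at 0, dotted lines at 2-fold. The 10 genes lie between 0.41 (Lgals3) and 2.35 (Spp1), above 0.

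A difference between 2 genes in log2 ratio does not depend on library scaling, though it does change with the GC and length correction, which subtracts the trends of the ratio on GC content and transcript length. In descending order the genes were Spp1, Fn1, Gpnmb, Adgre1, Itgax, Trem2, Cd63, Csf1r, Cd9 and Lgals3. Spp1 exceeded Fn1 by 0.62 (0.57 to 0.66) and Gpnmb exceeded Adgre1 by 0.50 (0.42 to 0.59). Neighbours that did not differ beyond counting error were Fn1 and Gpnmb, Trem2 and Cd63 (0.07, -0.08 to 0.22), and Csf1r and Cd9 (0.02, -0.04 to 0.08). After that correction Spp1 (2.02) and Fn1 (1.85) lay closer, Itgax (1.21) passed Adgre1 (1.05), Csf1r (0.97) and Cd9 (0.49) parted, and Cd9 was the lowest of the 10.

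The same genes were set against Cd68, a lysosomal glycoprotein of all macrophages, within each library. Cd68 itself had 518 FPKM in the knockout and 374 FPKM in the control, a log2 ratio of 0.78 (0.74 to 0.83). Spp1 was at 5.40 times the FPKM of Cd68 in the knockout and 1.82 times in the control, a change of 1.57 on the log2 scale (1.52 to 1.62). Fn1 was at 0.377 times Cd68 in the knockout and 0.195 times in the control, a change of 0.95 (0.90 to 1.01), and Gpnmb changed by 0.94 (0.88 to 1.01). Adgre1 changed by 0.44 (0.36 to 0.52) and Itgax by 0.30 (0.24 to 0.36). Trem2 at 0.15 (0.01 to 0.29) and Cd63 at 0.08 (0.01 to 0.16) moved little relative to Cd68. Csf1r changed by -0.13 (-0.20 to -0.06), Cd9 by -0.15 (-0.20 to -0.10) and Lgals3 by -0.37 (-0.42 to -0.33). Over the pan-macrophage marker Lyz2 the changes were 1.24 for Spp1, 0.63 for Fn1, 0.62 for Gpnmb, 0.12 for Adgre1 and -0.02 for Itgax. On that scale Trem2 was at -0.18, Cd63 at -0.25, Csf1r at -0.46, Cd9 at -0.48 and Lgals3 at -0.70. After the GC and length correction the ratio of Cd68 itself was 1.19 and that of Spp1 2.02, so that Spp1 exceeded Cd68 by less than 2-fold.

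Against the whole pan-macrophage list, whose median log2 ratio was 0.86, Spp1 alone of the 10 was still called, at 1.49. Of the 14455 measured genes, 199 were called higher on that scale. Fn1 was at 0.88, Gpnmb at 0.87, Adgre1 at 0.36, Itgax at 0.23, Trem2 at 0.07 and Cd63 at 0.00. Csf1r at -0.21, Cd9 at -0.23 and Lgals3 at -0.45 turned negative on this scale. Relative to the median of the fibroblast markers all 10 were called higher, from 1.45 for Lgals3 to 3.39 for Spp1. So were 7564 of the 14455 measured genes. TMM scaling lies 0.32 above scaling by total reads on the log2 scale, and with total reads alone the median of all measured genes was -0.32. With the GC and length correction Spp1 was at 2.02, Fn1 at 1.85, Lgals3 at 0.97 and Cd63 at 1.59 with a call. That value of Cd63 used a transcript of 2894 bases with a single exon, and with the transcript nearest to its deposited length (1043 bases) Cd63 was at 0.87.

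**Figure D3:**
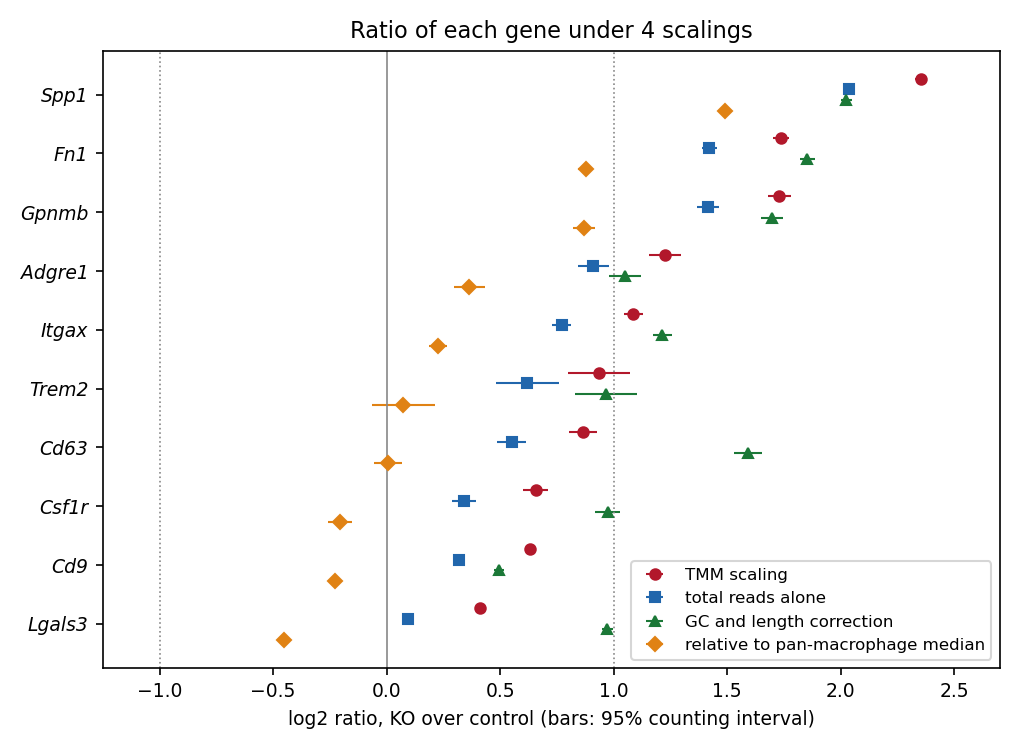
Log2 ratio of knockout over control for each gene with TMM scaling, total reads alone, the GC and length correction, and relative to the pan-macrophage median. Bars are 95% counting intervals and dotted lines mark 2-fold; relative to the pan-macrophage median Spp1 stands at 1.49 and Lgals3 at -0.45.

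Because the libraries carry no strand information, reads in overlapping genes could belong to either. In the GENCODE M21 annotation 15.1% of the exon bases of Csf1r overlap Hmgxb3 on the other strand, which had 391 reads in the knockout and 594 in the control. Of the exon bases of Spp1 18.8% overlap Gm42793, which was not analysed here. Cd9 and Fn1 overlap genes with at most 1 read, and the other 6 genes share no exon bases with another gene.

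Genes known to accompany the 10 in scar-associated macrophages came from a list of 30, all measured. Of these, 12 were called higher and none lower, with a median log2 ratio of 0.92. Over all measured genes the median was 0.01 and 9.37% were called higher, and over those of at least 100 CPM, where most of the list lies, the median was 0.48 and 17.8% were called higher. Of the 20 pan-macrophage markers 8 were called higher, with a median of 0.86. Relative to that median the list of 30 had a median of 0.06. Mmp12, the macrophage elastase, stood at 151 FPKM in the knockout and 28.3 FPKM in the control, a log2 ratio of 2.73 (2.68 to 2.79), above that of Spp1. Igf1, a growth factor for mesenchyme, was at 1.76 (1.62 to 1.91), Lipa, the lysosomal lipase, at 1.68 (1.65 to 1.72), and Atp6v0d2, a subunit of the proton pump, at 1.34 (1.30 to 1.38). Syngr1 was at 1.30 (0.95 to 1.67), on 188 reads in the knockout and 101 in the control. The most abundant of the list were not called: Chil3, a chitinase-like protein, had 5595 FPKM in the knockout and 4085 FPKM in the control (0.77), and Hmox1, heme oxygenase, 3276 FPKM and 2695 FPKM (0.60). With total reads alone 4 of the 30 were called higher. With the GC and length correction 16 were, but Igf1 at 0.87 and Atp6v0d2 at 0.84 lost the call, while Hmox1 was called at 1.02.

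Partners of the secreted ligands were mixed. Of 14 genes in the list of receptors for osteopontin and fibronectin, 4 were called higher and 1 lower. Their median of -0.12 turned to 0.26 after the GC and length correction. The list also holds Plaur, the receptor of urokinase. The alpha V chain Itgav was at 1.39 (1.32 to 1.46), Itga4 at 1.35 (1.24 to 1.47), Itgb8 at 1.26 (0.79 to 1.75) on 105 and 58 reads, and Cd44, also a receptor of hyaluronan, at 1.16 (1.13 to 1.18). Itga3 was lower at -1.41 (-1.59 to -1.23). Cd44 was the most abundant, with 331 FPKM in the knockout and 185 FPKM in the control, followed by the urokinase receptor Plaur, with 182 FPKM and 281 FPKM (-0.31). None of these 5 calls was kept with the correction, under which the integrin chain Itgb5 was called higher, at 1.37, and the chains Itgb6, at -1.27, and Itga8, at -1.52, were called lower. The correction placed Itgav at 0.76, Itga4 at 0.58, Itgb8 at 0.46, Cd44 at 0.65 and Itga3 at -0.81. Among 7 measured genes of a list of galectins, Lgals3 included, and the galectin-binding protein Lgals3bp, none was called higher. Lgals7, on 6 reads in the knockout and 47 in the control (-2.48), and Lgals4, on 38 and 109 reads (-1.10), were lower, and both are galectins of epithelium. Lgals1 was at 0.31 and turned to -0.01 with total reads alone, and Lgals3bp was at 0.78. With the correction Lgals3bp was called higher, at 1.35, and Lgals4 lost its call, at -0.62.

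Around the receptors, none of 13 genes in the list of the CSF1 receptor axis, Csf1r among them, was called higher. In that list 2 were lower, beside 14.2% of all measured genes called lower. Csf1, a ligand of the receptor, was at -0.57 (-0.66 to -0.47) on 1341 and 2637 reads, without a call. Il34, the other ligand of the receptor, was at -1.57 (-2.45 to -0.81) on 17 and 68 reads, or -0.87 with the correction, and Csf2, the gene of GM-CSF, at -1.05 (-1.58 to -0.55) on 45 and 124 reads. Csf2 encodes a ligand of the GM-CSF receptor, not of the CSF1 receptor. Csf2rb, a subunit of the GM-CSF receptor, was at 0.68 and Cebpb, a myeloid transcription factor, at -0.16, neither called. With the correction Cebpb turned to 1.43 and was the 1 gene of the list called higher, and Csf2 the 1 called lower. Of 13 measured genes of TREM2 signalling, Trem2 among them, 3 were higher and none lower, with a median of 0.59. They were Ms4a7 at 1.70 (1.47 to 1.94) and the sheddases Adam10 at 1.17 (1.09 to 1.24) and Adam17 at 1.13 (1.07 to 1.20), which cleave TREM2 from the surface. Adam10 and Adam17 lost the call with total reads alone, at 0.85 and 0.82. Tyrobp, the adaptor of TREM2, had 667 FPKM in the knockout and 808 FPKM in the control, a log2 ratio of 0.04 (-0.01 to 0.09) that was -0.28 with total reads alone, and Apoe, a TREM2 ligand, was at 0.59. With the correction 4 of the 13 were called higher, Apoe at 1.54, Ms4a7 and Syk at 1.18 and Hcst at 1.06, while Adam10 at 0.58 and Adam17 at 0.74 were not.

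Of a list of 8 genes of beta2 integrins and their partners, 2 were called higher, Itgax and Itgam, the alpha chain CD11b, at 1.51 (1.40 to 1.63). Their common beta chain Itgb2 had 476 FPKM in the knockout and 330 FPKM in the control (0.84), and the ligand Icam1 180.0 FPKM and 243 FPKM (-0.12). Of 8 adhesion receptors related to Adgre1, Adgre1 was the only one called higher. Adgrg1 at -1.20 (-1.38 to -1.02) and the endothelial Adgrl4 at -1.08 (-1.53 to -0.66) were lower, and Adgre5, the most abundant relative in the control, was at -0.85. Adgrg1 was at -0.68 and not called with the correction.

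Tetraspanins other than Cd9 and Cd63 mostly had negative ratios. Of 20 tetraspanins and partners, a list that includes Cd9 and Cd63, 5 were called lower and none higher, beside 14.2% and 9.37% of all measured genes. The median was -0.45, or -0.08 among the 15 of at least 10 CPM in either library. The 5 were Tspan33 (-1.52), Tspan15 (-1.33), Tspan7 (-1.21), Tspan9 (-1.19) and Tspan6 (-1.09), each at most 7.10 FPKM. Cd53, a leukocyte tetraspanin, was at 0.93 with 309 FPKM in the knockout and 203 FPKM in the control, and Cd81 at -0.49. With total reads alone 8 of the 20 were called lower, beside 22.1% of all measured genes. The GC and length correction moved the median to -0.12, left 4 called lower and called Cd63 higher. Tspan9, at -0.76, lost its call. Of 18 MiT factors and lysosomal genes, Gpnmb among them, 7 were called higher and 1 lower, with a median of 0.78. Lamp2 (1.32), the MiT factors Tfec (1.31) and Mitf (1.16) and the cholesterol transporter Npc1 (1.22) were among those called higher, while Tfeb was lower at -1.11. After the correction Lamp2 was at 0.64, Tfec at 0.70, Mitf at 0.63 and Npc1 at 0.79, none of them called, and Tfeb turned to 0.10. The correction left 8 of the 18 called higher and none lower. Ctsd, the most abundant, had 2584 FPKM in the knockout and 1561 FPKM in the control (1.04), and Psap 2084 FPKM and 1460 FPKM (0.83). With total reads alone 2 of the 18 were called higher.

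**Figure D4:**
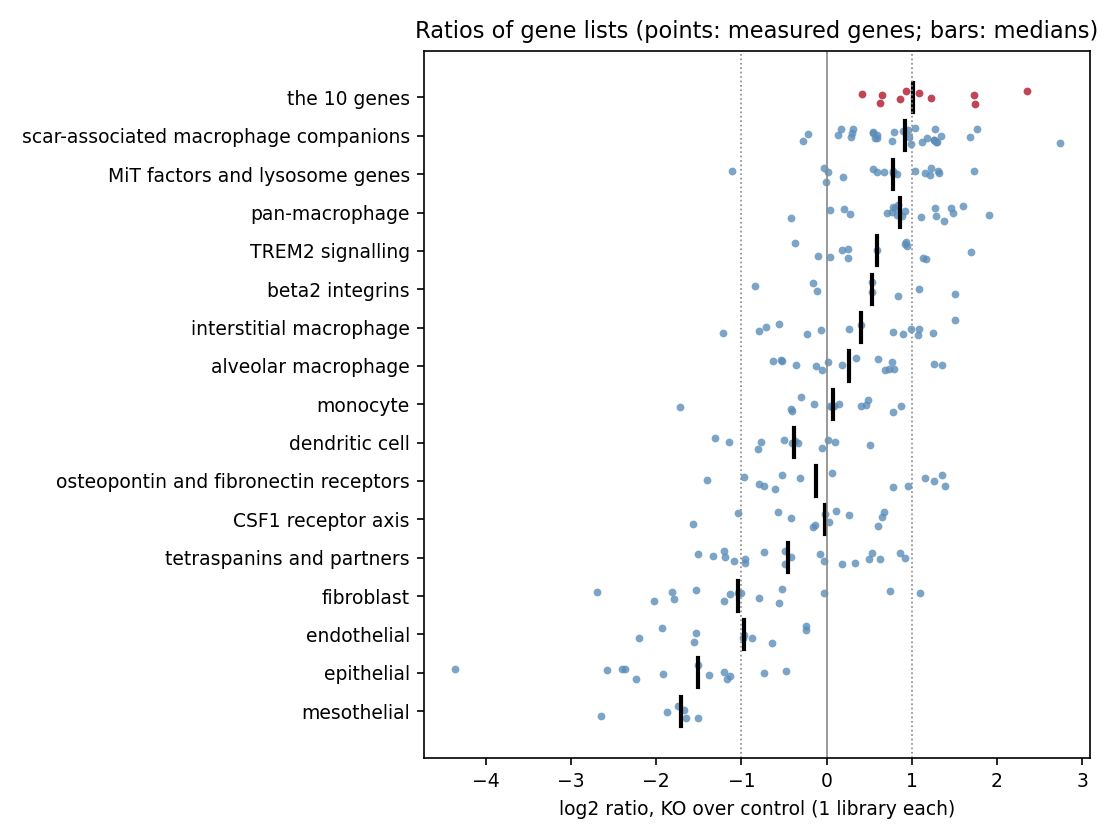
Log2 ratio of knockout over control of the measured genes of the 10 genes and of partner and cell type lists (points) with the median of the list (bar), 1 library each; dotted lines mark 2-fold. The 10 genes, chosen with these ratios known, have a median of 1.01, the pan-macrophage markers 0.86 and the fibroblast markers -1.04.

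Of 20 pan-macrophage markers 8 were called higher, 12 were not called and none was lower, led by the scavenger receptor Msr1 at 1.90 (1.80 to 2.01), the oxidase subunit Cybb at 1.60 (1.57 to 1.63) and the perforin-like Mpeg1 at 1.48. Of the 20, 5 were called higher with total reads alone and 10 with the GC and length correction. Lyz2, the most abundant gene of the list, had 17157 FPKM in the knockout and 9887 FPKM in the control, and Ctss 3234 FPKM and 1653 FPKM. Their part in the ratios of the 10 genes was not tested. Alveolar macrophage markers, 16 genes, had a median of 0.27 that turned to -0.05 with total reads alone, and 2 were called higher, Siglec1 at 1.35 and Itgb8. Their summed level was 8382 FPKM in the knockout and 7143 FPKM in the control. Most of it came from Chil3, also in this list, at 5595 FPKM in the knockout and 4085 FPKM in the control. The abundant Ear2 had 843 FPKM in the knockout and 1143 FPKM in the control (-0.12). Among 15 interstitial macrophage markers 4 were higher and 1 lower, with F13a1 at 1.51, Folr2 at 1.25, C1qb at 1.08, Cd163 at 1.07 and Gas6 at -1.22. Gas6, at -0.61, and Cd163, at 0.88, were not called with the correction. It called 5 of the 15 higher and none lower. Scaling by total reads alone left 1 of the 15 called higher and 3 lower. The most abundant, Cd74, the invariant chain, had 2201 FPKM in the knockout and 4744 FPKM in the control (-0.79), and C1qb 209 FPKM and 123 FPKM.

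Monocyte markers, 14 genes, included no gene called higher and 1 called lower, Hp at -1.72, with a median of 0.08 that was -0.24 with total reads alone. F10, also in that list, was at 0.14. Their summed level was 318 FPKM in the knockout and 493 FPKM in the control. Dendritic cell markers, which share Itgax with macrophages, had 2 of 12 lower and none higher, a share close to the 14.2% of all measured genes called lower, with a median of -0.39. Fscn1 (-1.31) and Cd209a (-1.14) were lower, Ccr7 had 77.4 FPKM in the knockout and 165 FPKM in the control (-0.77), and Xcr1 was at 0.51. Of the 12, 4 were called lower with total reads alone. Of eosinophil markers, cells that also carry F4/80, 4 of 7 passed the filter and Alox15 was lower at -1.42, while Siglec5 was at 0.61 and Ear6 at 0.79. Epx, the eosinophil peroxidase, had 2 reads in each library. Neutrophil markers had 4 of 10 higher and 1 lower, with S100a8 at 2.27, Ngp at 2.08 and S100a9 at 1.99, and with Ltf at -1.44. Their summed level was 433 FPKM in the knockout and 166 FPKM in the control. These lists' part in the ratios of Itgax and Adgre1 was not tested.

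Epithelial cells and fibroblasts also express some of the 10 genes. Of 13 epithelial markers 11 were called lower and none higher, with a median of -1.52 and a summed level of 6345 FPKM in the knockout and 26155 FPKM in the control. Scgb1a1, of club cells, had 3553 FPKM in the knockout and 16783 FPKM in the control, and Sftpc, of type II cells, 2309 FPKM and 7510 FPKM. With the GC and length correction 7 of the 13 were called lower. Of 15 fibroblast markers 9 were lower and 1 higher, with a median of -1.04, and with Inmt at -2.70, Gpx3 at -2.02, Mfap4 at -1.82 and, as the only one higher, Fap at 1.09, which was called neither with total reads alone nor with the correction. Dcn had 89.1 FPKM in the knockout and 228 FPKM in the control. Smooth muscle and myofibroblast markers had 1 of 8 lower, Cnn1 at -1.40, and Acta2 had 8.36 FPKM in the knockout and 19.7 FPKM in the control. All 6 measured mesothelial markers and 4 of 10 endothelial markers were lower, Upk3b at -2.65 and Plvap at -2.21 among them, and with total reads alone 7 endothelial and 3 smooth muscle markers were called lower. Lymphocyte markers had 4 of 10 lower and 1 higher, with Cd79a at -2.10 and Cd8a at 2.18. The part of these cells in the ratios of the 10 genes was not tested. Genes of the cell cycle had 7 of 10 called higher and none lower, Cenpe (1.67), Cenpf (1.47) and Mki67 (1.46) among them. With the correction 2 of these 10 were called, and with total reads alone 4.

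The genes most like Fn1 and Spp1 in these libraries were found by the distance in log2 FPKM over the 2 libraries. Nearest to Fn1 was Nampt, with 194 FPKM in the knockout and 73.6 FPKM in the control, a distance of 0.02. Gpnmb followed at 0.12, Il1a at 0.16, Sh3bgrl at 0.37 and Ptprc at 0.38. Spp1 had no gene as close: Ccl6 was at 1.16, Psap at 1.18, Ctsd at 1.20, Ctss at 1.30 and Prdx1 at 1.34. Ccl6, a chemokine of myeloid cells, had 1259 FPKM in the knockout and 765 FPKM in the control, a log2 ratio of 1.03.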

How the data were processed

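The authors deposited 1 table in which every gene has an estimated count and an FPKM value in both libraries, per the file headers. TopHat, Cufflinks, GRCm38 and mm10 are named without roles or versions, per the submitters' processing notes. The library kit was Nextera XT, per the labels' protocols, and it does not mark strand. Estimated counts were rounded to whole reads, since 73.3% of the detected genes in the knockout and 76.1% in the control had fractional values. They summed to 15122824 reads in the knockout and 16145959 in the control. The deposited FPKM used 1 gene length for both libraries.

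TMM scaling used edgeR 4.0.16 (R 4.3.3), which served for scaling only since 1 library per group allows no test. Log2 ratios used a prior count of 0.5, and intervals are exact conditional binomial 95% intervals (Clopper-Pearson, scipy 1.17.1). Intervals of differences between 2 genes are normal approximations from the counts. Without molecular identifiers several reads may come from 1 molecule, and intervals cover counting error only. Lowess trends (span 0.3, statsmodels 0.14.6) on GC content and log2 length gave the GC and length correction, with a GC value for 98.9% of measured genes. The log2 ratios, their exact intervals, the calls and the filter were checked on simulated counts. The other calculations, the GC and length correction among them, were not.

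The members and the 23 other gene lists were chosen with earlier results of these data known. Of 288 list symbols 1 had no row, and 10 were matched by gene ID. Genes were named by rule: in each partner list the called genes, at most 5 by size of ratio, and the 2 highest by FPKM; in each cell type list the 2 highest by FPKM and at most 3 called genes; and the 5 genes nearest to Spp1 and to Fn1. Not all genes the rule takes are printed. Cd68, Itgb5, Itgb6, Itga8, Csf1, Syk, Hcst, Tfeb, Cd163, Ltf, Fap and Epx were named outside it, after their values were seen. Protein sequences were not used here.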

Additional observations from a re-analysis of the deposited data

How the results depend on the processing

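No paired analysis was possible because each genotype has 1 library, and for the same reason no replicate could be left out. Spp1, 2.35 with TMM scaling, was at 2.04 with total reads alone, 2.04 with log2 of FPKM plus 1 or plus 0.1, 2.02 with the GC and length correction, 2.00 with that correction on the transcript nearest the deposited length (chosen after seeing the data), 1.49 relative to pan-macrophage markers and 3.39 relative to fibroblast markers. Fn1, 1.74 with TMM, was at 1.42, 1.41, 1.42, 1.85, 1.84, 0.88 and 2.78 in the same settings, with the pseudocount of 1 before that of 0.1. Of the 10 genes, 5 called higher with TMM, 3 were called with total reads alone and with either FPKM pseudocount, where calls rest on the fold alone, 9 with a 1.5-fold rule, 1 with a 4-fold rule, 1 relative to pan-macrophage markers and 10 relative to fibroblast markers. Of the 10 genes, the GC and length correction called 6 higher on the longest transcript and 5 on the nearest. The measured genes numbered 14455 with TMM, the other call rules and either marker scale, and 14502 with total reads alone. They numbered 12948 with FPKM, 14289 with the corrections and 9680 with at least 10 CPM. Over all measured genes 1355 were called higher with TMM. The number was 587 with total reads alone, 313 with FPKM plus 1, 502 with FPKM plus 0.1, 3193 and 174 with 1.5-fold and 4-fold rules, 714 when the interval had to exclude 2-fold, 793 and 789 with the corrections on the longest and the nearest transcript, 199 relative to pan-macrophage markers and 7564 relative to fibroblast markers. Called lower were 2053 with TMM, 3212 with total reads alone, 911 with at least 10 CPM, 3390 and 397 with 1.5-fold and 4-fold rules, 932 when the interval had to exclude 2-fold, 6229 relative to pan-macrophage markers and 329 relative to fibroblast markers. The cause was not tested beyond what each setting's construction shows. DESeq2 1.42.0 size factors, a prior count of 2 and unrounded counts changed no call among the 10 genes. Depth limits genes such as Krt5, with 2 reads in the knockout, and the lack of replicates limits every ratio.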
